A study of Mus musculus with 23 samples.

Results

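The genes followed here are the 32 mouse genes that carry glucose into the muscle fiber and through glycolysis, from the glucose transporters GLUT1 and GLUT4 to lactate export, the glycerol phosphate shuttle and the pyruvate dehydrogenase complex. They were chosen by gene symbol, as a fixed list of pathway members, and all 32 were found among the 55573 gene identifiers of the count table. Of these, 31 passed the filter on low counts and were tested. The brain and liver aldolase Aldoc did not, with at most 3.43 CPM in any mouse (CPM, counts of read pairs on genes, per 1e6 counted pairs of the mouse, scaled by trimmed mean of M-values).

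RNA was sequenced from the quadriceps, a thigh muscle rich in fast fibers, of male and female C57Bl6 mice (C57BL/6J in the study's methods) aged 8 to 10 weeks at the start. A slow-release pellet placed under the skin of the neck held either 50 mg corticosterone with 50 mg cholesterol, or 100 mg cholesterol as vehicle, and muscle was taken after 14 days and a fast of 5 h. The 4 groups were vehicle males (6 mice), corticosterone males (6), vehicle females (6) and corticosterone females (5), and each library came from a separate mouse. The study asked how glucocorticoid excess acts on muscle in each sex. The mice are named here by sex and label number, so that odd numbers received vehicle and even numbers corticosterone. All groups shared the strain and the pellet type, no engineered allele is named for any of them, and the pellet held the same dose for both sexes.

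Glycolysis splits glucose into pyruvate and yields ATP without oxygen, and fast-twitch muscle fibers depend on it during short bursts of work. Several steps are run by tissue-specific isozymes: in adult muscle Pfkm, Pgam2, Eno3 and Aldoa encode the muscle forms, whereas Pfkl, Pfkp, Pgam1, Eno1 and Aldoc encode forms that dominate in other tissues. Corticosterone is the main glucocorticoid of mice, a hormone class known for raising blood glucose and lowering glucose use in muscle.

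Gene counts ranged from 20904150 to 21984477 per mouse, so depth was nearly even. The summed level of 5 skeletal muscle markers was at least 49982 CPM in every mouse, so the labelled tissue was present in each library, and no library was a duplicate of another. Several libraries stood apart in the genes of other tissues or in glucocorticoid targets. In the vehicle male M1, 6 testis-specific genes summed to 421 CPM, against at most 5.27 CPM in the other 22 mice. In the corticosterone female F4, 5 glucocorticoid target genes summed to 436 CPM, inside the range of the vehicle females (241 to 579 CPM) and below the other corticosterone females (745 to 1189 CPM). Fkbp5, 1 of those targets, was nevertheless at 207 CPM in F4, above every vehicle female (12.5 to 48.4 CPM). In the corticosterone females F2, F6 and F10, 5 adipocyte markers summed to 1815, 3487 and 1567 CPM, against 33.5 CPM in F8 and 495 CPM in F4. In vehicle females that sum ran from 56.5 to 1702 CPM, and in males of both groups from 29.6 to 483 CPM. The 5 hepatocyte markers summed to 2284 CPM in M8, 2251 in F10, 1357 in M9, 1340 in M12 and 1017 in F6, against at most 287 CPM in any other mouse. Of the 5 erythrocyte markers 4 passed as higher with corticosterone in each sex, and of the 5 fibroblast markers 3 passed as lower in males and 1 in females. The part of these cells in the results below was not tested. Counts of members are given with and without M1, F4 and the set F2, F6 and F10. The 5 values of the corticosterone females are listed throughout in the order F2, F4, F6, F8, F10. As this is bulk tissue, fewer cells of a type and less RNA per cell cannot be told apart.

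Together the 32 genes took 3.39% (F10) to 6.49% (F1) of all gene counts of a mouse, and Aldoa alone took 1.29% to 3.10%. Per kilobase of exon, Aldoa, which cleaves fructose 1,6-bisphosphate, had the highest mean level in vehicle males (7189 ± 589 CPM per kb, SD, n = 6) and in vehicle females (7005 ± 1079, n = 6). Next stood the muscle enolase Eno3 (3130 ± 445 in vehicle males), the muscle phosphoglycerate mutase Pgam2 (2427 ± 157) and Gapdh (1978 ± 287), then the muscle phosphofructokinase Pfkm (1139 ± 77.5), lactate dehydrogenase Ldha (956 ± 135) and the triose phosphate isomerase Tpi1 (912 ± 92.8). Per kilobase the levels of Ldha and Tpi1 did not differ beyond their spread, and neither did those of Slc2a4 (183 ± 14.5) and Gpi1 (186 ± 17.8). The length is that of all annotated exons of a gene merged, such as 4133 bases for Gapdh and 840 for Pgam2. The order thus depends on the annotation. In CPM alone, vehicle males had Gapdh at 8175 ± 1185, above Eno3 (5442 ± 774) and Pgam2 (2038 ± 132). Gpi1 (1198 ± 115 CPM) then stood above Slc2a4 (637 ± 50.2 CPM). At the low end stood Pfkp (0.72 ± 0.19 CPM per kb) and Aldoc (0.16 ± 0.07). Each of the muscle isozymes Aldoa, Pfkm, Pgam2 and Eno3 exceeded its non-muscle counterpart by orders of magnitude per unit of length.

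**Figure D1:**
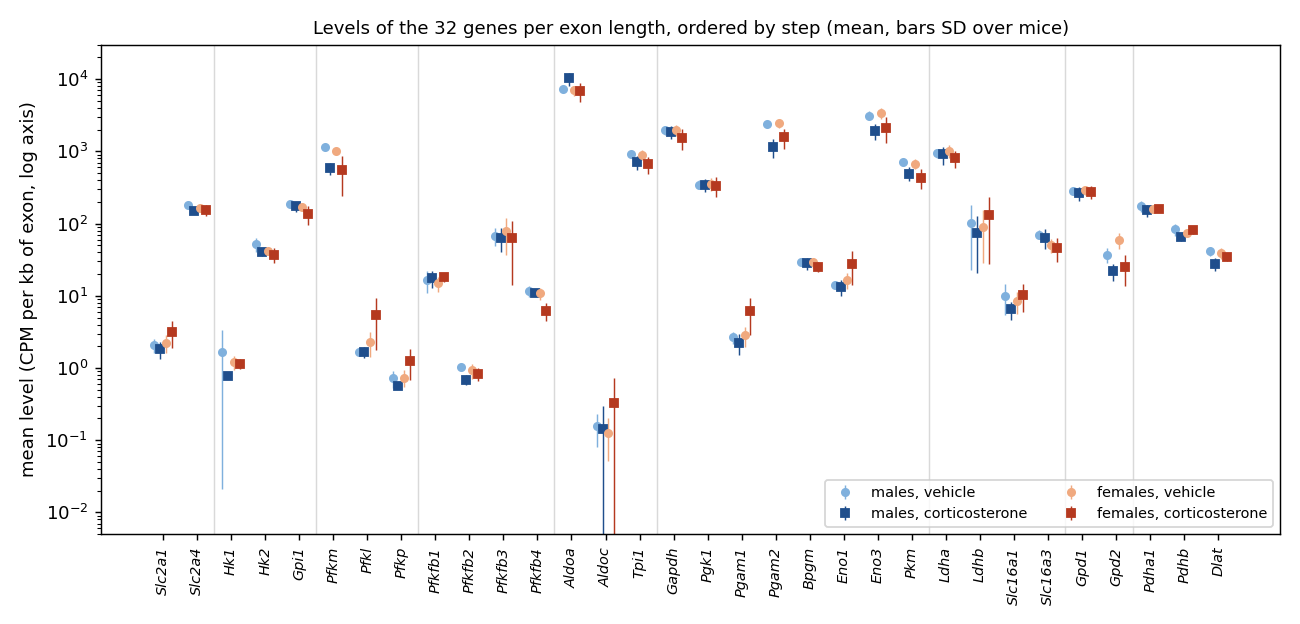
Mean level of each of the 32 genes (CPM per kb of exon, log axis) in the 4 groups, with bars for the SD over mice and genes ordered from glucose entry to pyruvate dehydrogenase. Aldoa stands at the top in all groups and Aldoc at the bottom. The wide SD bar of Hk1 in vehicle males includes M1, the library with testis transcripts, at 42.7 CPM.

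The question of the first comparison was which of these genes changed with corticosterone in males. The muscle isozymes Pfkm, Pgam2 and Eno3 fell, as did Pfkfb2, which sets the level of the phosphofructokinase activator fructose 2,6-bisphosphate, and Dlat, the acetyltransferase subunit of pyruvate dehydrogenase. No member rose. Thus 5 of 31 tested members passed an adjusted p of 0.01 (edgeR quasi-likelihood test, Benjamini-Hochberg over 13049 genes), all lower, where 26.3% of all tested genes passed, 13.1% lower and 13.2% higher. The share of members that fell is near that of all genes. Of the 31, 29 had a log2 fold change below 0, and the median was -0.25, against -0.02 over all tested genes. In 3 members, Pfkm, Pfkfb2 and Pgam2, all corticosterone males lay below all vehicle males, a pattern that 11.1% of all tested genes showed in this direction, and none lay wholly above (10.8% of all genes). Leaving out M3 or M8 left 3 members past the threshold, Pfkm, Pgam2 and Dlat (beside 23.3% and 22.1% of all genes), and without M1, the library with testis transcripts, these and Pfkfb2 passed (4 members, beside 23.4% of all genes).

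In females the same test passed 4 of 31 members, where 13.4% of all tested genes passed (6.0% lower and 7.40% higher). Pfkm fell here too, and so did Pfkfb4, another of the bifunctional enzymes of fructose 2,6-bisphosphate, and Gpd2, the mitochondrial glycerol 3-phosphate dehydrogenase. Pgam1, the non-muscle phosphoglycerate mutase, rose. With library size alone as the scaling, 6 members fell and none rose, beside 11.3% of all genes in either direction. The median log2 fold change of the members was -0.11, against 0.04 over all tested genes, and 21 of 31 were below 0. In no member were the corticosterone and vehicle females fully apart (3.38% of all genes were wholly higher and 4.34% wholly lower).

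The female count depended on single mice more than the male count did. Without F4, 11 members passed (17.3% of all tested genes did), with Eno3, Pgam2, Pkm and Gpi1 also lower and Pfkl, Pfkp and Eno1 also higher. Without F8, 8 members passed, beside 18.1% of all genes. Without F1, F2, F6 or F10, 2 members passed, Gpd2 and Pfkfb4 each time, beside 10.1%, 8.56%, 7.69% and 9.23% of all genes. Without F2, F6 and F10 together, which leaves F4 and F8, edgeR's test passed 0 of 31 members (0.996% of all genes), 3 of them had an unadjusted p under 0.05, and the lowest adjusted p was 0.102. The part that the adipocyte content and the weak glucocorticoid signal of F4 play in the counts was not tested beyond these fits.

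**Figure D2:**
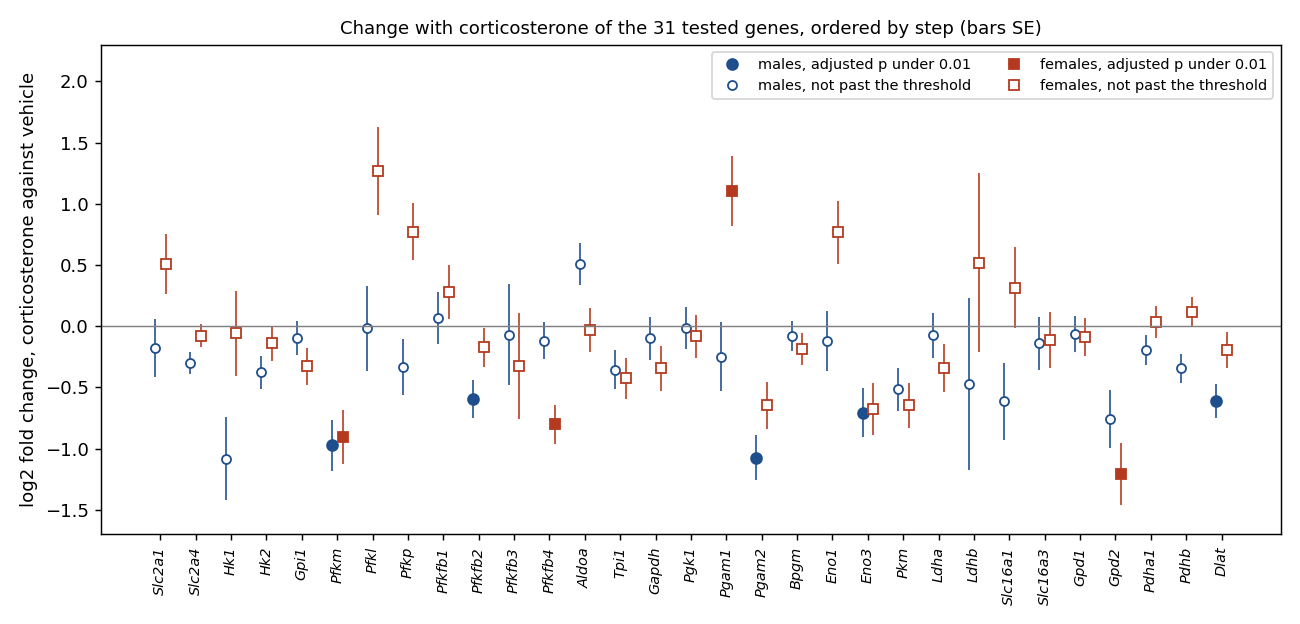
Log2 fold change with corticosterone of the 31 tested genes in males (circles) and females (squares), ordered by step, with bars for the SE and filled symbols for an adjusted p under 0.01. Pfkm is filled in both sexes near -0.9 and -1.0. Pfkl, Pfkp, Pgam1 and Eno1 stand above 0 in females and near or below 0 in males.

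Between the sexes, 8 members passed in at least 1 sex and Pfkm passed in both. Of the 31, 20 had a fold change below 0 in both sexes, 1 above 0 in both, and 9 below 0 in males but above 0 in females. These counts do not test a difference between the sexes. The interaction of sex and treatment did (male response minus female response): edgeR's test passed 0 of 31 members, against 0.690% of all tested genes. An unadjusted p under 0.05 was reached by 8 of 31 members and by 4187 of 13049 tested genes. DESeq2 also passed 0 and limma-voom passed 2, Pfkp and Pgam1, the same pair that passed in edgeR without F8. Over all 13049 tested genes DESeq2 passed 896, limma-voom 693 and edgeR without F8 893. The lowest adjusted p in edgeR belonged to Pgam1 (difference of log2 fold changes -1.36 ± 0.40, SE, adjusted p = 0.0345), Pfkp (-1.10 ± 0.33, 0.035) and Pfkfb4 (0.68 ± 0.22, 0.0454).

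Glucose enters muscle mainly through GLUT4 (Slc2a4), which insulin and contraction move to the cell surface, with GLUT1 (Slc2a1) as a basal carrier. Slc2a4 ran from 578 to 714 CPM in vehicle males (median 641) and from 470 to 588 CPM in corticosterone males (median 506). It was 535 to 616 CPM in vehicle females (median 564) and 575, 497, 476, 684 and 464 CPM in the corticosterone females. The male groups overlapped only at their edges, and F8 was the highest of the females. The difference was -0.30 ± 0.09 on the log2 scale in males (adjusted p = 0.0119) and -0.08 ± 0.10 in females (0.582), so neither passed. Slc2a1 stayed between 3.97 and 18.2 CPM in all mice, with the top value in F10, and passed in neither sex.

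Hexokinases trap glucose as glucose 6-phosphate and Gpi1 turns it into fructose 6-phosphate. Hk2, the main muscle hexokinase, was 244 to 433 CPM in vehicle males and 212 to 273 CPM in corticosterone males (-0.38 ± 0.14, adjusted p = 0.0313), and 184 to 309 CPM over all females. Hk1 was 42.7 CPM in M1 and 7.10 to 9.997 CPM in the other vehicle males, against 5.80 to 7.87 CPM in corticosterone males. Its log2 difference was -1.08 ± 0.34 (0.0143) with M1 and -0.34 ± 0.14 (0.0639) without it. Whether the testis transcripts of M1 bear on its Hk1 value was not tested. Gpi1 spanned 905 to 1428 CPM over all males and 600 to 1333 CPM over all females, with 906, 1255, 728, 854 and 600 CPM in the corticosterone females. It passed in neither sex, and in females it passed without F4 (-0.50, adjusted p = 0.00756).

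Phosphofructokinase commits sugar to glycolysis. Pfkm, the muscle subunit (chromosome 15, 98092589 to 98132451, plus strand, GRCm38), ran from 3457 to 4190 CPM in vehicle males (median 3769) and from 1438 to 2454 CPM in corticosterone males (median 1991). The male groups did not overlap. It was 3095 to 3951 CPM in vehicle females (median 3254) and 1543, 3560, 1070, 1756 and 1180 CPM in the corticosterone females. Of the corticosterone females F4 sat among the vehicle mice, and the other 4 lay below every vehicle female. The change was -0.97 ± 0.21 in males (adjusted p = 0.000811) and -0.90 ± 0.22 in females (0.00454), and -1.30 (4.24e-06) in females without F4. In males it passed in all 33 alternative fits, and in females in 27 of 33. The 4 markers of type 2B fibers, the glycolytic fibers of mouse muscle, summed to 48922 to 76873 CPM in vehicle males and to 54461 to 106406 CPM in corticosterone males. The 4 did not move together: Actn3 passed as higher in males (6635 to 10410 CPM with vehicle, 18842 to 34009 with corticosterone), and Pvalb passed as lower (9422 to 17742 against 5097 to 9771 CPM). The 33 alternative fits include 1 with type 1 fiber markers as a covariate. Beyond that fit the part of fiber type in the change of Pfkm was not tested. In the corticosterone females the sum was 64627, 81303, 46608, 46846 and 25421 CPM, against 52987 to 86473 CPM in vehicle females.

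The other 2 subunits were low. Pfkl, the liver form, was 7.69 to 13.0 CPM over all males and 10.2 to 26.2 CPM in vehicle females, and 53.7, 9.92, 63.6, 10.8 and 45.5 CPM in the corticosterone females. The corticosterone females thus formed a high and a low set, and the high set was the set rich in adipocyte markers. The vehicle females F3 and F5, with adipocyte sums of 1566 and 1702 CPM next to the 1567 CPM of F10, had Pfkl at 15.9 and 26.2 CPM, below the 45.5 CPM of F10. They were still the highest vehicle females for Pfkl, as the others had 10.2 to 14.9 CPM. Pfkp, the platelet form, showed the same split, at 17.9, 28.7 and 18.2 CPM in F2, F6 and F10 against 10.98 and 8.71 CPM in F4 and F8. Neither passed in females (Pfkl 1.27 ± 0.36, adjusted p = 0.0122; Pfkp 0.77 ± 0.24, 0.0192) or in males, and both passed in females without F4.

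The bifunctional Pfkfb enzymes make and break fructose 2,6-bisphosphate, the strongest activator of phosphofructokinase. Pfkfb2 was 6.34 to 8.57 CPM in vehicle males (median 7.76) and 3.75 to 5.93 CPM in corticosterone males (median 5.16), with no overlap. It fell by 0.59 ± 0.16 on the log2 scale (adjusted p = 0.00452). In females it ran from 4.92 to 9.13 CPM with vehicle, and was 5.05, 5.35, 4.89, 7.58 and 6.84 CPM in the corticosterone females (-0.17 ± 0.16, 0.457).

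Pfkfb4 passed in females and not in males. It was 45.8 to 73.8 CPM in vehicle males (median 56.5) and 47.6 to 55.9 CPM in corticosterone males (median 54.3). In vehicle females it was 39.9 to 66.4 CPM (median 49.6), and in the corticosterone females it was 29.5, 40.8, 30.3, 33.1 and 17.6 CPM. Only F4 of the corticosterone females reached the vehicle range. The fall in females was -0.80 ± 0.16 (adjusted p = 0.0012), against -0.12 ± 0.15 (0.56) in males. Pfkfb3, the most abundant of the 4 per unit of length, varied widely within every group, from 101 CPM (F8) to 1180 CPM (F9), and passed in neither sex (male -0.07 ± 0.41, female -0.33 ± 0.43). Pfkfb1, at 38.6 to 102 CPM, did not pass either.

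Aldoa had a higher mean in corticosterone males, unlike the other abundant members: 17828 to 22832 CPM with vehicle (median 21203) and 21970 to 37339 CPM with corticosterone (median 29508). The groups met at their edges, and the difference of 0.51 ± 0.17 (adjusted p = 0.0247) did not pass, although it did in DESeq2 (0.00755) and limma-voom. In females Aldoa was 17207 to 24505 CPM with vehicle and 24651, 25364, 17793, 21086 and 10758 CPM in the corticosterone females (-0.03 ± 0.18, 0.914), with F10 the lowest of all 23 mice. Tpi1, which interconverts the triose phosphates, was lower on average in both sexes without passing (-0.36 and -0.43).

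**Figure D3:**
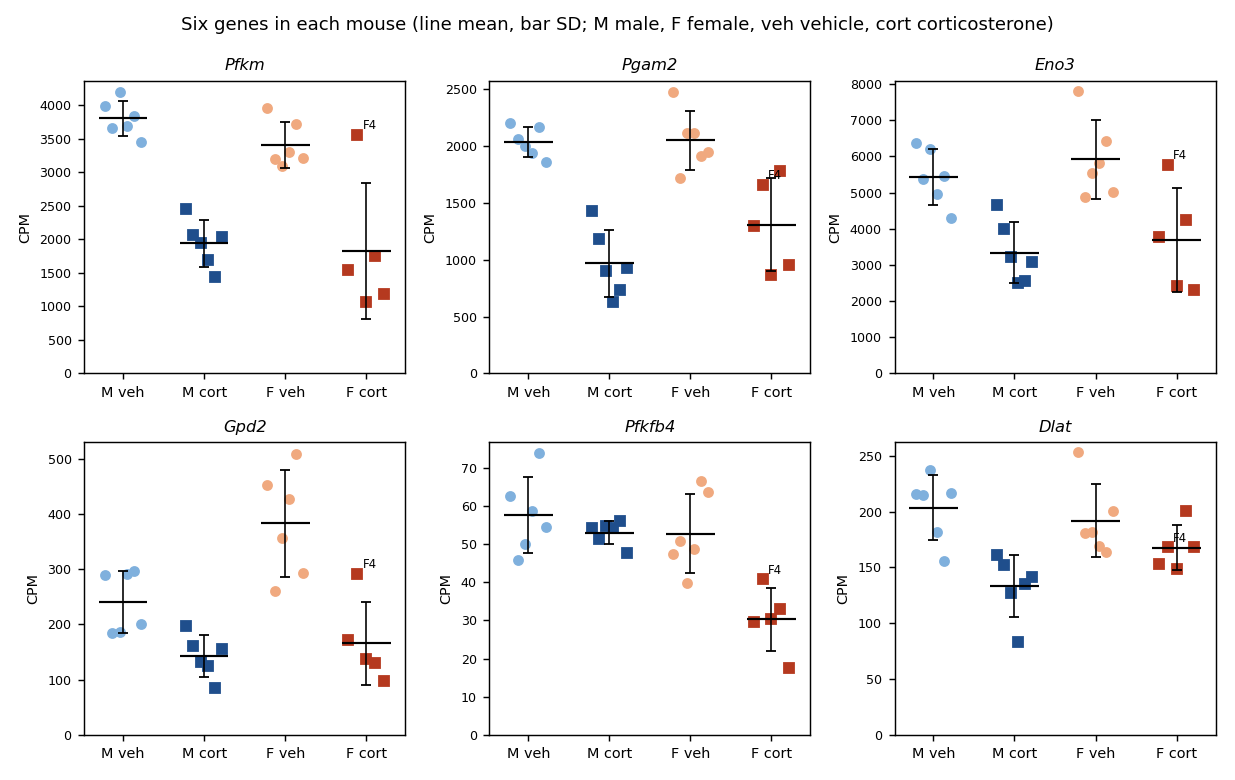
CPM of Pfkm, Pgam2, Eno3, Gpd2, Pfkfb4 and Dlat in each of 23 mice, by sex and treatment, with a line for the group mean and a bar for the SD. F4 lies at the level of vehicle females for Pfkm, Eno3 and Gpd2. In males Pfkm and Pgam2 separate the treatments fully, and Pfkfb4 does not.

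In lower glycolysis the muscle forms of consecutive steps fell while the steps around them did not pass. Pgam2 (chromosome 11, 5801640 to 5803733, minus strand) ran from 1857 to 2199 CPM in vehicle males (median 2033) and from 630 to 1427 CPM in corticosterone males (median 916), with no overlap. It fell 2.11-fold (-1.07 ± 0.18, adjusted p = 9.84e-05), the smallest adjusted p of any member in either sex, and passed in all 33 alternative fits. In females it was 1716 to 2479 CPM with vehicle (median 2032) and 1293, 1658, 861, 1779 and 953 CPM in the corticosterone females. F8 lay within the vehicle range and F4 just below it, and the difference (-0.65 ± 0.19, 0.0167) did not pass.

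Eno3, the muscle enolase (chromosome 11, 70657202 to 70662513, plus strand), was 4292 to 6360 CPM in vehicle males (median 5408) and 2508 to 4651 CPM in corticosterone males (median 3147). It fell by 0.71 ± 0.20 (adjusted p = 0.00814) in males, with the highest corticosterone male above the lowest vehicle male, and passed in 19 of 33 alternative fits. In females it was 4886 to 7805 CPM with vehicle (median 5679) and 3761, 5767, 2407, 4251 and 2295 CPM in the corticosterone females (-0.68 ± 0.21, 0.0225). All but F4 lay below every vehicle female. Pkm, which makes pyruvate, had differences of -0.52 ± 0.17 in males (0.0221) and -0.65 ± 0.18 in females (0.0129), neither past the threshold.

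The non-muscle forms of the same steps did not follow. Pgam1 was 3.15 to 7.04 CPM over all males and 4.20 to 8.85 CPM in vehicle females, and 14.3, 5.83, 20.9, 5.71 and 13.9 CPM in the corticosterone females. It rose in females by 1.11 ± 0.29 (adjusted p = 0.00737), and the 3 high values were those of F2, F6 and F10. The vehicle females F3 and F5, whose adipocyte sums were near that of F10, had 6.18 and 8.85 CPM, and the others 4.20 to 5.38 CPM. With the summed adipocyte markers of each mouse as a covariate the female difference of Pgam1 was 0.80 (0.00993). Without F2, F6 and F10 it was 0.02 (0.982). Eno1 was 190, 79.3, 243, 66.7 and 173 CPM in those 5 mice, against 67.7 to 131 CPM in vehicle females (0.77 ± 0.26, 0.0316). Pgk1, Bpgm and Gapdh, the remaining members of this stretch, passed in neither sex. Gapdh, often used as a reference gene, ran from 5994 to 9692 CPM over all males and from 3920 (F10) to 10459 CPM (F1) over all females (male -0.10 ± 0.18, female -0.35 ± 0.19).

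The promoters of Pgam2 and Pgam1, of the muscle enolase Eno3 and of Pfkm are shown because the muscle forms fell with corticosterone in males and Pgam1 did not. The 250 bases before each start are from RefSeq on GRCm38.p6, 5′ to 3′ on the gene's strand. Capitals mark AGAACA, the core of the glucocorticoid response element, the consensus of the muscle factor MEF2, and ACGTG, the core of hypoxia response elements, each searched on both strands.
Pgam2, chr11:5803797-5804046, minus strand: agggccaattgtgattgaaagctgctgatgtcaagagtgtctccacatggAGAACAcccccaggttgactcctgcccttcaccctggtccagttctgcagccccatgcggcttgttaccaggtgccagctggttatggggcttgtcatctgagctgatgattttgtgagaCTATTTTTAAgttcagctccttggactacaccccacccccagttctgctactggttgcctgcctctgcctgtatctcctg
Eno3, chr11:70656926-70657175, plus strand: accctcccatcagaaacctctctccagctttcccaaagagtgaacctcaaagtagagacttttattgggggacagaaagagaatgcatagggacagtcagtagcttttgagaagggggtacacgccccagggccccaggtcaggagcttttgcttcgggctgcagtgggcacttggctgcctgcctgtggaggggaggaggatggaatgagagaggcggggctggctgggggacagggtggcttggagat
Pfkm, chr15:98111810-98112059, plus strand: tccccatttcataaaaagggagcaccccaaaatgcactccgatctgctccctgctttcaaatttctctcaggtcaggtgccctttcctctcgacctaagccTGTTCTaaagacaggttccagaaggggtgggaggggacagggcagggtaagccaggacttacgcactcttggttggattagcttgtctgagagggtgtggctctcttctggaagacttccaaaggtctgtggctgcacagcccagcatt
Pgam1, chr19:41911621-41911870, plus strand: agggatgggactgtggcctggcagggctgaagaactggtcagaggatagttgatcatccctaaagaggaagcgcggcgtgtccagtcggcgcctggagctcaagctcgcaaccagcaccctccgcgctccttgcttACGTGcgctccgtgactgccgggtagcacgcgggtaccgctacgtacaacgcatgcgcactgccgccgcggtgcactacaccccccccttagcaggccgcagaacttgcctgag
The Pgam2 window held AGAACA and a MEF2 consensus, the Pfkm window AGAACA on the opposite strand, and the Pgam1 window ACGTG, whereas the Eno3 window held none of them. RefSeq lists 4 windows for Pfkm. The printed one was the only one of them with AGAACA, and 2 of the other 3 held ACGTG. RefSeq windows existed for 30 members, 48 windows in all. AGAACA was in 10 of those 48 windows and in 16.1% of all 32851 windows, ACGTG in 18 of 48 and in 16.6%, and the MEF2 consensus in 2 of 48 (Pgam2 and Pfkfb1) and in 1.69%. The E-box CANNTG, which can overlap ACGTG and is not in capitals, was in 29 of 48 and in 66.2%. A match of these short letters is a description of the window and not a binding site.

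Lactate dehydrogenase turns pyruvate into lactate and back, and the monocarboxylate transporters carry lactate across the membrane. Ldha, the form of fast muscle, was 2431 to 3736 CPM in vehicle males (median 3196) and 2044 to 4088 CPM in corticosterone males (median 2896). In females it was 2647 to 4377 CPM with vehicle and 3217, 3344, 2350, 2651 and 1647 CPM in the corticosterone females. The groups overlapped broadly and neither sex passed (-0.08 ± 0.19 and -0.34 ± 0.20). Slc16a3, the export carrier of fast fibers, did not pass either (-0.14 and -0.11).

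Ldhb and Slc16a1, the lactate-using pair of oxidative fibers, varied widely within groups. Ldhb ran from 10.1 to 335 CPM over all males and from 17.7 to 438 CPM over all females, and Slc16a1 from 17.03 to 72.4 and from 13.3 to 69.3 CPM. The lowest Ldhb levels, 10.1, 12.9 and 17.7 CPM, were in M8, M9 and F9, which were also the mice with the lowest summed type 1 fiber markers (38.0, 42.9 and 40.2 CPM). That sum reached 5017 CPM among the males and 5806 CPM among the females. Neither gene passed in any comparison. The part of fiber type in their spread was not tested.

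**Figure D4:**
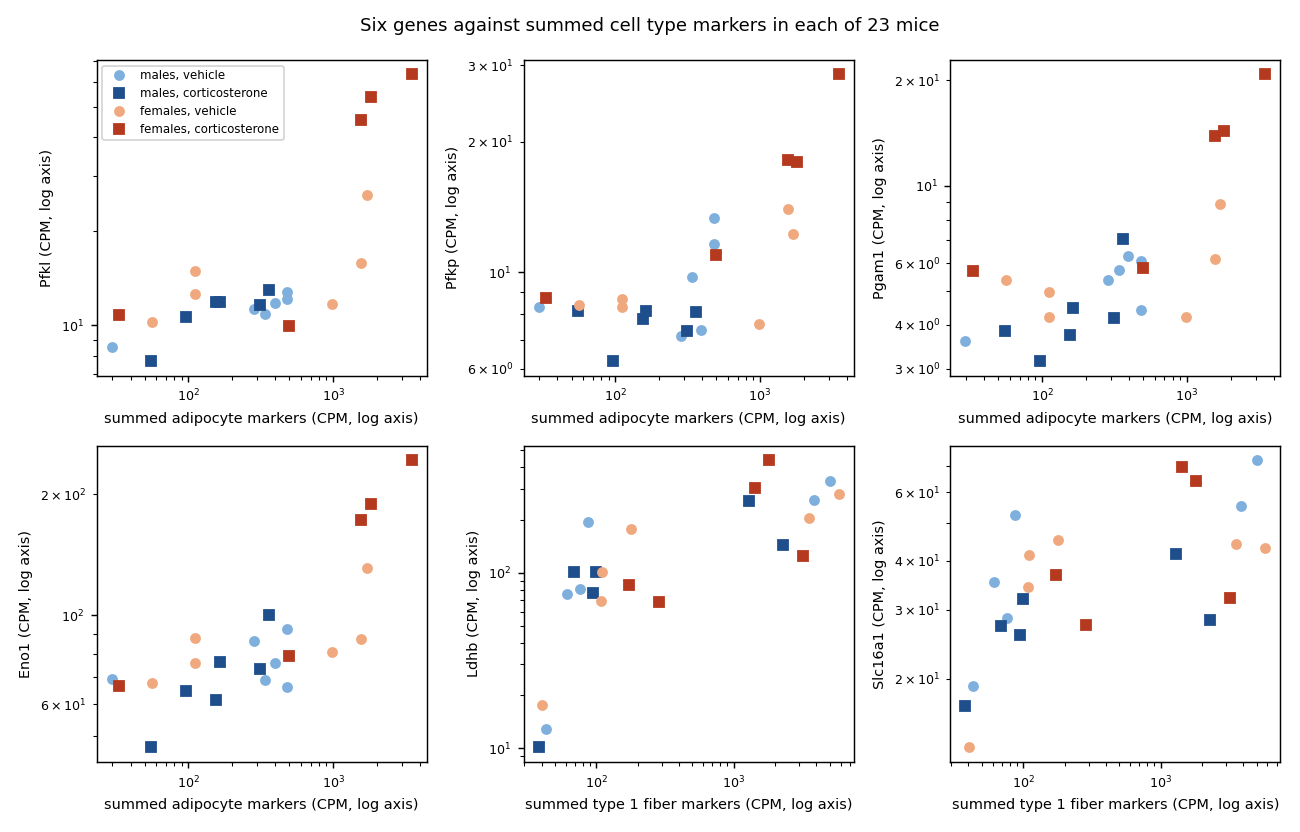
CPM of Pfkl, Pfkp, Pgam1 and Eno1 against the summed adipocyte markers, and of Ldhb and Slc16a1 against the summed type 1 fiber markers, in each of 23 mice (log axes). F2, F6 and F10 stand at the upper right in the adipocyte plots, and the corticosterone females F4 and F8 lie with the other groups. The points share library and scaling.

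The glycerol phosphate shuttle passes cytosolic NADH to the mitochondria through Gpd1 in the cytosol and Gpd2 on the inner membrane. Gpd1 hardly differed, at 508 to 984 CPM over all males and 617 to 1034 CPM over all females (-0.06 ± 0.15 and -0.09 ± 0.16). Gpd2 (chromosome 2, 57237635 to 57370719, plus strand) was 260 to 509 CPM in vehicle females (median 392) and 172, 292, 138, 129 and 98.3 CPM in the corticosterone females. Again only F4 reached the vehicle range. Gpd2 fell by 1.21 ± 0.25 on the log2 scale in females (adjusted p = 0.00162). In males it was 185 to 297 CPM with vehicle (median 245) and 85.6 to 196 CPM with corticosterone (median 143), a difference of -0.76 ± 0.24 that missed the threshold (0.0143).

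The pyruvate dehydrogenase complex opens the way from pyruvate to the citric acid cycle. Dlat (chromosome 9, 50634633 to 50659780, minus strand) was 156 to 237 CPM in vehicle males (median 215) and 83.0 to 161 CPM in corticosterone males (median 138), with a small overlap. It fell by 0.61 ± 0.14 (adjusted p = 0.00152) and passed in all 33 alternative fits. In females it was 164 to 253 CPM with vehicle and 153, 168, 148, 200 and 168 CPM in the corticosterone females (-0.19 ± 0.15, 0.344). Of the E1 subunits, Pdha1 was 509 to 847 CPM in vehicle males and 372 to 666 CPM in corticosterone males, and 526 to 707 CPM over the corticosterone females. Pdhb differed by -0.35 ± 0.12 in males (0.0208) and by 0.11 ± 0.12 in females. Neither passed.

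Within a mouse, the ratio of 2 members is free of the scaling between libraries. Gpd1 to Gpd2, counted with the isozyme ratios, sets the cytosolic against the inner-membrane enzyme of the shuttle. It does not compare a muscle form with its counterpart. The log2 count ratio was compared between treatments for 11 pairs in each sex, 22 comparisons in all, with a two-sided exact permutation test adjusted over them. With 6 against 6 mice the smallest p possible is 0.00216, and with 5 against 6 it is 0.00433. In males Pfkm to Pfkl went from 8.41 ± 0.20 (SD, n = 6) with vehicle to 7.44 ± 0.19 with corticosterone (exact permutation p = 0.00216, adjusted p = 0.0159). Eno3 to Eno1 went from 6.15 ± 0.17 to 5.56 ± 0.43 in males, and Gpd1 to Gpd2 from 1.80 ± 0.20 to 2.48 ± 0.09, both with the same exact p and adjusted p. In these 3 the treatments did not overlap.

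Pfkm to Pfkp in males (difference -0.69, exact permutation adjusted p = 0.0476) and Gpd1 to Gpd2 in females (1.17, adjusted p = 0.0476) also passed, which made 5 of 22. They passed in 4 and in 14 of the 23 fits that left out 1 mouse. The number that passed was 8 without M4, and 3 without any 1 of F1, F2, F5, F6, F7, F8, F9, F10 or F11. In females Gpd1 to Gpd2 was 0.97 to 1.49 with vehicle and 2.57, 1.41, 2.80, 2.45 and 2.65 in the corticosterone females, so that F4 alone stood within the vehicle range. Pfkm to Pfkl in females had a larger difference than in males (-1.98) but also a larger spread, with 8.48 in F4 and 4.07 in F6, and did not pass (adjusted exact p = 0.143). Pgam2 to Pgam1 did not pass in either sex (adjusted exact p = 0.0544 in males and 0.0833 in females).

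**Figure D5:**
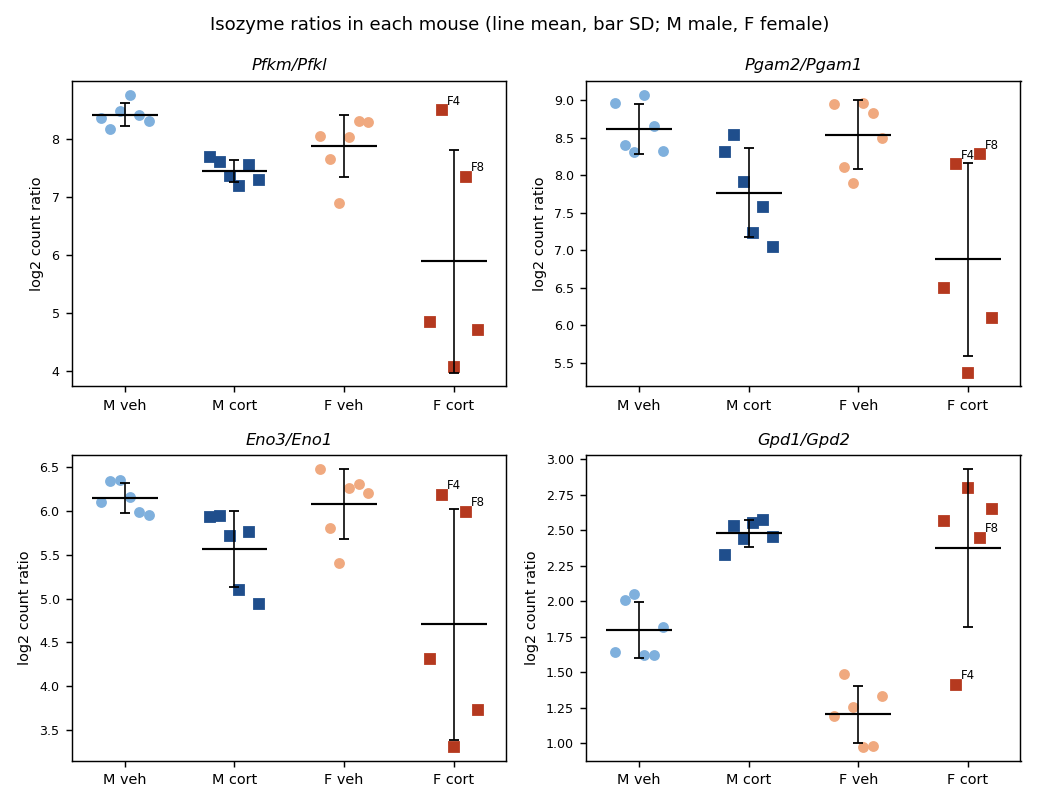
Log2 count ratio of Pfkm to Pfkl, Pgam2 to Pgam1, Eno3 to Eno1 and Gpd1 to Gpd2 in each of 23 mice, with a line for the group mean and a bar for the SD. In males the treatments are apart for 3 of the 4 ratios. F4 and F8 lie above the other corticosterone females for the muscle to non-muscle ratios.

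Without treatment, the sexes were close. In vehicle mice no member passed in edgeR (males against females, 0.958% of all tested genes did). An unadjusted p under 0.05 was found for 3 of 31 members, beside 1717 of 13049 tested genes. These 3 were Gpd2 (-0.67 ± 0.24), Hk2 (0.34 ± 0.14) and Slc16a3 (0.49 ± 0.22). DESeq2 and limma-voom also passed 0, beside 284 and 187 of all 13049 genes. The median difference of the members was 0.04 on the log2 scale, against -0.00 over all genes. Gpd2 averaged 241 ± 56.4 CPM in vehicle males and 383 ± 96.3 CPM in vehicle females (adjusted p = 0.171). With the label number as a replicate block, since the same-numbered vehicle mice of both sexes deviated together, Gpd2 passed (-0.66 ± 0.12, adjusted p = 0.00971), as did 1.05% of all genes. Whether the sexes were processed in the same batch is not stated, so sex and batch cannot be told apart.

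Under corticosterone, 5 members differed between the sexes, where 23.3% of all tested genes passed (9.31% higher and 14% lower in males). Pfkfb4 was higher in males (0.81 ± 0.16, adjusted p = 0.000815). Pfkl (-1.72 ± 0.36, 0.00111), Pfkp (-1.15 ± 0.24, 0.00103), Pgam1 (-1.46 ± 0.29, 0.000784) and Eno1 (-1.09 ± 0.26, 0.00254) were lower in males. All males were above all females for Pfkfb4 (6.87% of all genes) and below all females for Hk1 and Pfkp (5.55%). Without F4, 8 members passed (25.5% of all genes), and with the adipocyte covariate 2, Pfkfb4 and Pgam1 (11.5% of all genes). Without F2, F6 and F10, 0 passed in edgeR (1.58% of all genes), 5 had an unadjusted p under 0.05, and the Pfkl difference changed sign to 0.12. The median difference of the members was -0.06, against -0.03 over all genes.

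Around the 32 genes, 90 others of glucose metabolism and its control were listed, of which 83 passed the filter. In males 11 were higher and 8 lower (median 0.03), in females 12 higher and 5 lower (median 0.05) beside 26.3% and 13.4% of all genes, and 27 passed in at least 1 sex. Among those that passed in both sexes, Slc2a3, Adpgk, Lnpep, Txnip, Foxo1 and Foxo3 were higher, and Eya1 and Mef2c were lower. Without F2, F6 and F10 none of these 8 passed in females, where 1 of the 83 was then higher and 0 lower, beside 0.996% of all genes. Eya1 is a coactivator of fast-fiber genes and Mef2c a muscle transcription factor. Eya1 fell from a median of 30.7 to 14.9 CPM in males and from 20.4 to 10.5 CPM in females, and Mef2c from 395 to 241 CPM and from 458 to 258 CPM. Without F2, F6 and F10 the female log2 differences were -0.53 for Eya1 (-0.95 with them) and -0.44 for Mef2c (-0.80 with them).

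The transcription factor Foxo1, which promotes fasting metabolism in muscle, was 15.4 to 19.6 CPM in vehicle males and 97.9 to 119 CPM in corticosterone males (2.66 ± 0.23, adjusted p = 5.11e-08). In females it was 17.03 to 23.5 CPM with vehicle and 87.5, 20.8, 102, 62.3 and 53.7 CPM in the corticosterone females (1.70 ± 0.23, 3.51e-05), so F4 was again at the vehicle level. Without F2, F6 and F10 the female difference of Foxo1 was 1.04 (0.0144). Txnip, which limits glucose uptake, rose by 0.48 ± 0.11 and 0.59 ± 0.11. Pdk4, the kinase that shuts pyruvate dehydrogenase, had differences of 0.81 (0.0196) and 0.96 (0.0145) that did not pass.

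Slc2a3, the neuronal glucose transporter GLUT3, was higher in males at either treatment. With vehicle it was 9.10 to 37.6 CPM in males and 0.781 to 2.32 CPM in females (3.22 ± 0.41, adjusted p = 4.04e-05). M1, the library with testis transcripts, had the 37.6 CPM, and the next vehicle male 17.2 CPM. Slc2a3 rose with corticosterone by 1.30 in males (0.00664) and by 2.704 in females (0.000123), and the female difference was 1.89 without F2, F6 and F10 (0.0243).

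For 2 of the 83, the response differed between the sexes in the model of the 4 groups, beside 0.690% of all tested genes. Tbc1d4, the insulin-regulated brake on GLUT4 traffic, was 32.05 to 56.3 CPM in vehicle males and 103 to 160 CPM in corticosterone males, but 46.8 to 86.3 CPM in vehicle females and 105, 90.5, 87.0, 88.6 and 87.2 CPM in the corticosterone females. The difference of the responses was 1.06 ± 0.21 (adjusted p = 0.00952). Foxo3, another fasting-related factor, rose by 1.54 ± 0.12 in males and by 0.52 ± 0.13 in females (difference 1.02 ± 0.18, 0.00607). Tbc1d4 passed in 9 and Foxo3 in 21 of 33 alternative fits, with the same direction in all. With the label number as a replicate block neither passed, at a difference of 1.08 (adjusted p = 0.0148) for Tbc1d4 and 1.04 (0.0149) for Foxo3.

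The pentose phosphate pathway, a branch from glucose 6-phosphate, had 4 of 8 tested genes higher and 1 lower in females. Among them was G6pdx (3.06 ± 0.58, adjusted p = 0.000699). In the same fit 13.4% of all tested genes passed in females in either direction. In males 0 of 8 passed, beside 26.3% of all tested genes, and 2 of the 8 had an unadjusted p under 0.05. Without F2, F6 and F10 none of these 5 calls in females was kept, where 0.996% of all genes passed. The median log2 fold change of the branch then went from 0.84 to -0.09. With the adipocyte covariate, 5 were higher in males and 4 higher and 1 lower in females. With that covariate 3706 of 13049 genes passed in males and 1615 in females.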

How the data were processed

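Quadriceps RNA of 23 mice was sequenced by the authors as stranded, mRNA-enriched paired-end libraries. Per the study's methods, reads were checked with FastQC and MultiQC, aligned with STAR 2.7.3a to mm10 and counted per Ensembl gene with HTSeq 0.12.4, on the reverse strand and from unique alignments only. The deposited table holds these raw counts per gene and mouse. HTSeq's 5 summary entries (10.7% to 15.3% of read pairs) were left out. Of 55573 identifiers, 55480 were named from the GENCODE annotation of the same build. Unique counting can lose pairs to near-identical copies, and named copies of the members had at most 2.39 CPM in sum. Aldoa has a second identifier, and the one with more counts was used. Antisense overlaps are limited by strand-aware counting.

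A gene was kept if 4 or more mice of any 1 group had more than 20 normalized counts (13049 genes). A model of the 4 groups was fitted to all 23 mice with edgeR 4.0.16 (R 4.3.3, TMM, quasi-likelihood F test), with Benjamini-Hochberg adjustment and a threshold of 0.01. Contrasts were corticosterone against vehicle in each sex, their interaction, and males against females within each treatment. TMM-scaled CPM, also per kb of exon, describe levels. Isozyme ratios used log2 of counts plus 0.5 and two-sided exact permutation tests (SciPy 1.17.1) with a threshold of 0.05. Alternatives were DESeq2 1.42.0, limma 3.58.1 (voom with quality weights), other scalings and filters, each sex alone, a replicate block and leaving out each mouse. Added after seeing the data were fits without F2, F6 and F10 and with adipocyte or type 1 fiber markers as a covariate, and M1 and F4 were singled out. The edgeR contrasts of corticosterone against vehicle in each sex were tested on simulated data. The simulation held no outlying library and no shift in cell content, and the other fits were not simulated.

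Same-numbered vehicle mice of both sexes deviated together (correlations of deviations from the group means 0.12 to 0.50 over 6 pairs), and for the vehicle comparison the blocked value is printed where it changed a call. Corticosterone mice did not (-0.41 to 0.30 over 5 pairs). Named with full values are the 6 members with the smallest adjusted p and the most abundant member of each role, and of the other pathway genes those past the threshold in both sexes plus the 2 with the smallest adjusted p in each sex. Pfkl, Pfkp, Pgam1, Eno1, Hk1, Ldhb, Slc16a1, Pkm, Pdk4, G6pdx and the testis genes were singled out after their values were seen. A gene that this rule names is not reported here. The members and lists were chosen with earlier results of these data known. At 20904150 to 21984477 gene counts per mouse, counting error is small for abundant members, whereas Aldoc had 2 to 85 counts.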

Additional observations from a re-analysis of the deposited data

Results flagged for a closer look

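Dixon's test of the highest or lowest mouse of a group, run on 164 gene and group combinations of the tested members and the named pathway genes, marked 11 (6.71%), where chance marks about 1 in 20. In vehicle males M1 stood apart for Hk1 (42.7 CPM, next 9.997) and Slc2a3 (37.6 CPM, next 17.2). M1 also held 760 counts of Gapdhs, 406 of Pgk2 and 1440 of Ldhc, the sperm forms of 3 glycolytic enzymes, against at most 3, 6 and 2 in any other mouse. In corticosterone females F4 was high for Pfkm (3560 CPM, next 1756), F8 for Hk2 (309 CPM, next 215) and F2 for Tbc1d4 (105 CPM, next 90.5). In vehicle females F5 was high for Pfkl (26.2 CPM) and Eno1 (131 CPM) and had the highest summed adipocyte markers of its group (1702 CPM). F9 was high for Pfkfb3 (1180 CPM) and low for Slc16a1 (13.3 CPM). In corticosterone males M12 was high for Pgam1 (7.04 CPM) and M8 low for Pdhb (192 CPM).

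The response to corticosterone differed between the sexes, by the interaction term of edgeR's quasi-likelihood test, for Tbc1d4 (male minus female log2 response 1.06) and Foxo3 (1.02). With the replicate block neither passed. No member passed that test, beside 0.690% of all tested genes.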

How the results depend on the processing

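The count of members that passed in males was 5. It became 9 with DESeq2, 11 with library size alone, 8 with limma-voom and 3 without a filter. It was 1 with a log2 fold change over 1 in addition, and 3 to 7 when a mouse was left out. Of all 13049 tested genes 3426 passed in males in the main fit, 3991 with DESeq2, 3082 with library size alone and 4129 with limma-voom. Without a filter 2837 of 31922 genes passed. In females the 4 became 9 with DESeq2 and 9 with limma-voom. The count was 0 with each sex fitted alone (11 of 31 with an unadjusted p under 0.05) and 0 without F2, F6 and F10. It was 2 with the fold limit, and 2 to 11 when a mouse was left out. Of all 13049 tested genes 1748 passed in females in the main fit, 2458 with DESeq2 and 2454 with limma-voom. With each sex fitted alone 561 passed, and without F2, F6 and F10 130 did. With type 1 fiber markers as a covariate 6 members passed in males and 4 in females, beside 3630 and 1759 of all genes. The interaction, 0, became 2 with limma-voom and 0 to 2 when a mouse was left out. Over all 13049 genes 90 passed the interaction in the main fit, 693 with limma-voom and 893 without F8. The vehicle comparison, 0, became 1 with the replicate block and stayed 0 when any mouse was left out. Over all genes its calls were 125 in the main fit and 137 with the block. The 5 of the corticosterone comparison became 9 with library size alone and 2 with the adipocyte covariate. They became 0 without F2, F6 and F10, where Pfkl reversed to 0.12, and 4 to 8 when a mouse was left out. Over all genes 3043 passed here in the main fit, 2962 with library size alone and 1498 with the adipocyte covariate. Without F2, F6 and F10 206 did. Isozyme ratios that passed, 5, were 3 to 8 when a mouse was left out. The cause of these shifts was not tested. In the corticosterone comparison and the interaction the numbers pair mice by number only. A replicate block left 5 and 0 calls there, beside 2262 and 97 over all 13049 genes. The 5 were then Aldoa, Gpi1, Pfkfb4, Pfkp and Pgam1. The block changed no other member call. Library size alone moved the median of all genes from -0.03 to -0.21 in the corticosterone comparison and from -0.05 to -0.18 in the interaction. Over all alternatives the calls of single members were lost in 51 of 462 cases and reversed in 1, and 72 of 4653 cases without a call gained one. The 27 pathway genes were 32 with DESeq2 and 26 with median-of-ratios scaling. Over all 13049 genes DESeq2 passed 3991 in males and 2458 in females, and median-of-ratios scaling passed 3436 and 1755. With 5 or 6 mice a group, differences smaller than the spread between mice were not detectable, and for Pfkfb3, Ldhb and Slc16a1 that spread is wide.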

Other observations

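Ldhb, the lactate dehydrogenase of oxidative fibers, was close in most pairs of vehicle mice that share a label number across the sexes. It was 76.2 CPM in M1 and 101 in F1, 259 in M3 and 281 in F3, 335 in M5 and 206 in F5, 81.1 in M7 and 69.3 in F7, 12.9 in M9 and 17.7 in F9, and 194 in M11 and 179 in F11. Among corticosterone mice Ldhb was 76.5 CPM in M2 and 124 in F2, 101 in M4 and 85.6 in F4, and 145 in M6 and 67.9 in F6. It was 10.1 CPM in M8 and 438 in F8, and 257 in M10 and 304 in F10. These are values only, with no test, and the gene was picked after they were seen. The labels do not say what a number marks.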
